A study of Homo sapiens with 6 samples.

Results

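Semaphorins, neuropilins and plexins form a guidance system in which cells release or display a ligand that changes the shape, adhesion and movement of cells carrying the receptor. The 10 genes described here encode the secreted semaphorins SEMA3A, SEMA3C and SEMA3F, the membrane-bound semaphorin SEMA4D, both neuropilins (NRP1 and NRP2) and the plexins PLXNA1, PLXNA2, PLXNB1 and PLXNB2. They had been chosen by their values in earlier results of these same arrays, and were taken here by name from a table of 19775 genes, with every probe set annotated to them. These were 35 of 54675 probe sets, 23 with a mean of at least log2 5 and 12 below it, a level treated here as close to background. Of the 10 genes, 9 had at least 1 probe set above that level, and PLXNA2 had none. The level alone sorted the genes into tested and untested, so it supports nothing further. The nearest probe sets on either side of it belonged to NRP1 and NRP2, with means of 5.09 and 5.11 inside and 4.65 and 4.72 outside, the last pair both of NRP2.

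The samples came from the established colorectal cancer line HCA-7, whose cells form either spiky or cystic colonies in type 1 collagen. The spiky clone (labelled sc1) and the cystic clone (labelled cc3) were each seeded in 3D collagen and harvested at day 5, 10 and 15. Every clone and day had a single expression array (Affymetrix U133 Plus 2.0). The labels give no treatment or genetic change for either clone. Each colony shape was thus represented by 1 clone and 3 arrays, so colony shape and clone cannot be told apart. The culture days served as replicates, although nothing in the labels marks them as independent cultures, and the p-values therefore cover array-to-array spread that may be technical. RNA was bulk RNA of the gel, so fewer cells of a kind and less RNA per cell cannot be told apart.

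In epithelia and in the vessels and nerves around them, class 3 semaphorins such as SEMA3A are secreted and bind neuropilins, which have short cytoplasmic tails and pass the signal on through A-type plexins. SEMA4D binds B-type plexins directly and can be shed from the membrane. Plexins act inside the cell on small GTPases, and neuropilins also bind vascular endothelial growth factors.

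Array medians lay between 5.18 and 5.34 (log2), and the 3' over 5' difference of the ACTB control probe sets, a sign of RNA integrity, was 2.73 to 3.10 on the spiky and 2.83 to 3.28 on the cystic arrays. For GAPDH it was 0.49 to 0.63 on the spiky and 0.63 to 0.79 on the cystic arrays. Of 8 markers of colonic epithelium 6 had means above log2 5, including EPCAM, CDH1 and the keratin genes KRT8, KRT18 and KRT19, whereas the colon markers KRT20 and CDX2 had means below it. All 7 endothelial markers had means below log2 5 over the 6 arrays, with list means of 3.71 to 3.88 on the spiky and 3.51 to 3.78 on the cystic arrays.

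The comparison of the spiky with the cystic clone asked which guidance genes differ by clone at matched days. SEMA3A and SEMA3C were lower in the spiky clone at all 3 days, and both neuropilin genes were higher at all 3 days. SEMA4D differed by -1.01 in its brighter and by -0.16 in its dimmer probe set (log2, spiky minus cystic). SEMA3F was higher by 1 of its probe sets, PLXNA1 was lower by 1 of its 3 probe sets, and PLXNB1 and PLXNB2 did not pass. In the fit over all genes, 3.65% of 12317 genes were called higher and 7.74% lower in the spiky clone (limma, Benjamini-Hochberg adjusted p below 0.05). SEMA3A and SEMA4D had been named from this same comparison in earlier results, so their clone differences are given as a description with no test. Of the other 7 tested genes 3 were called higher (SEMA3F, NRP1, NRP2) and 2 lower (SEMA3C, PLXNA1). The list was drawn up with those results known, so these counts and the p-values of the single genes below are not independent evidence.

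SEMA3A, a secreted ligand that repels axons and endothelial cells through neuropilin-1, had values of 6.02, 5.40 and 5.76 in the spiky clone at day 5, 10 and 15, against 8.81, 9.04 and 9.57 in the cystic clone (log2). The highest spiky value lay well below the lowest cystic value. The means were 5.72 ± 0.31 and 9.14 ± 0.39 in spiky and cystic colonies (SD, n = 3 each), a log2 difference of -3.42 or 10.7-fold lower. The gap was -2.79, -3.64 and -3.82 at day 5, 10 and 15. The gene's other 2 probe sets had means of 3.90 and 2.69, close to background, with clone differences of -0.76 and -0.61.

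SEMA3C, a secreted ligand that signals through both neuropilins, had 6.10, 5.40 and 5.48 in the spiky clone by day, against 7.75, 6.52 and 6.53 in the cystic clone (log2). The groups did not overlap, and the spiky clone was 2.41-fold lower (log2 difference -1.27, SE 0.19, limma adjusted p = 0.00346, lower at 3 of 3 days). A further SEMA3C probe set gave -1.77 (limma adjusted p = 0.00167 in a fit of every probe set), with 5.74, 5.15 and 3.65 in the spiky clone, the last below log2 5, and 7.60, 6.32 and 5.93 in the cystic clone.

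SEMA3F, a secreted ligand that prefers neuropilin-2, had 7.32, 7.83 and 9.97 in the spiky clone by day, against 6.92, 6.93 and 7.45 in the cystic clone (log2). The ranges overlapped, and the spiky day 15 array stood apart from the other 5. The fitted difference was 1.27 (SE 0.33, limma adjusted p = 0.0390), which fell to 0.65 without the spiky day 15 array (adjusted p = 0.0310) or without the cystic day 15 array (adjusted p = 0.0180). The gene's other probe set above log2 5 had 6.13, 6.39 and 6.76 in the spiky clone and 6.61, 6.15 and 6.43 in the cystic clone, a difference of 0.03. The SEMA3F call therefore holds for 1 of 2 such probe sets.

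**Figure D1:**
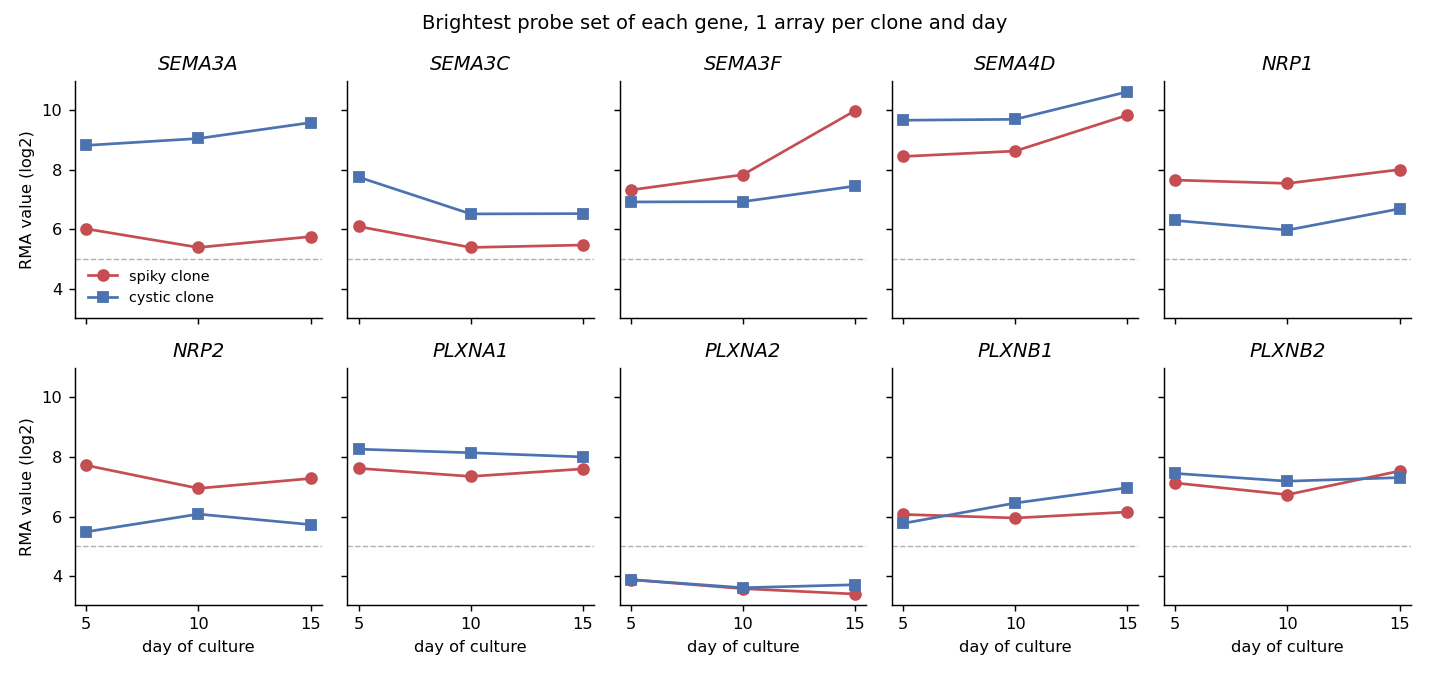
Log2 value of the brightest probe set of each of the 10 genes (vertical axis) against the day of culture (horizontal axis), 1 array per point, with red circles for the spiky clone, blue squares for the cystic clone and a dashed line at log2 5. SEMA3A runs between 5.40 and 6.02 in the spiky clone and between 8.81 and 9.57 in the cystic clone, NRP1 and NRP2 lie higher in the spiky clone, and PLXNA2 stays below 5 throughout.

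SEMA4D, the membrane ligand of B-type plexins, had 8.44, 8.62 and 9.82 in the spiky clone by day, against 9.65, 9.68 and 10.60 in the cystic clone (log2). At each day the spiky value was the lower, by 1.21, 1.06 and 0.78, although the ranges over all days overlapped because both clones were higher at day 15. The mean difference was -1.01, or 2.02-fold lower. The dimmer SEMA4D probe set, with a mean of 5.77, differed by -0.16.

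Both neuropilins, the ligand-binding coreceptors, were higher in the spiky clone. NRP1 had 7.65, 7.54 and 8.0 in the spiky clone by day, against 6.30, 5.98 and 6.69 in the cystic clone (log2). The groups did not overlap, and the spiky clone was 2.65-fold higher (log2 difference 1.41, SE 0.16, limma adjusted p = 0.00101, 3 of 3 days). Another NRP1 probe set had 6.26, 6.29 and 6.23 in the spiky clone, against 3.99, 3.55 and 4.21 in the cystic clone, all 3 of the cystic values below log2 5. All 4 NRP1 probe sets, the 2 close to background included, had higher means in the spiky clone.

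NRP2 had 7.71, 6.94 and 7.27 in the spiky clone by day, against 5.49, 6.08 and 5.73 in the cystic clone (log2). These groups did not overlap either, and the spiky clone was 2.91-fold higher (log2 difference 1.54, SE 0.24, limma adjusted p = 0.00486, 3 of 3 days). The gene has 11 probe sets, and all 11 had the higher mean in the spiky clone. Over the 7 above log2 5 the difference ran from 0.65 to 1.54. In the fit of every probe set 4 of the 7 passed and 3 did not (adjusted p = 0.0767, 0.103 and 0.111). Over all 29468 probe sets of that fit 926 were called higher and 1772 lower in the spiky clone. Among the NRP2 probe sets that passed, the one at 0.95 had cystic values of 4.59, 4.74 and 4.64. The one at 1.5 had cystic values of 4.48, 4.54 and 4.06. These probe sets reached a mean of log2 5 only through the spiky arrays, so their passing adds no support. With the median of its probe sets in place of the brightest, NRP2 differed by 0.99 (limma adjusted p = 0.0182). The probe sets of a gene share their RNA and arrays and are not replicates. The 7 endothelial markers, from cells known for high neuropilin levels, had means below log2 5, with VWF at 5.13 on the spiky day 15 array and PECAM1 at 5.3 and 5.22 on the spiky and cystic day 15 arrays. Their part in the neuropilin values was not tested.

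**Figure D2:**
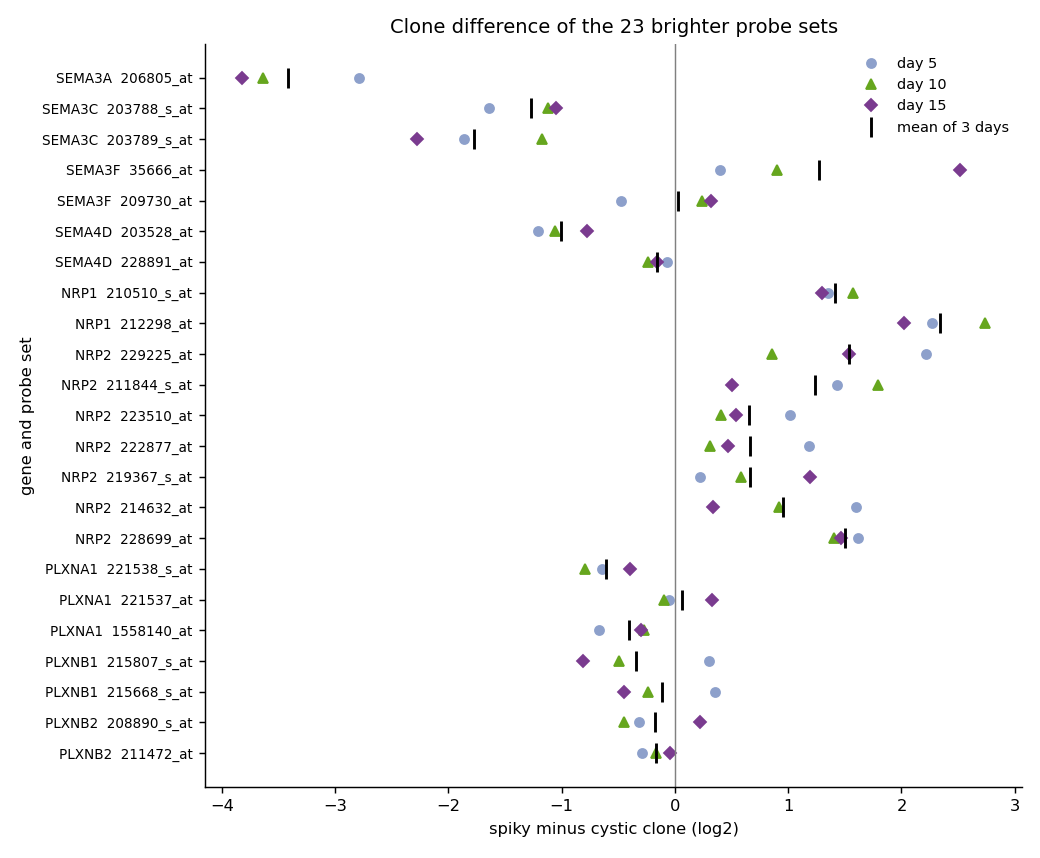
Spiky minus cystic difference (log2, horizontal axis) of each of the 23 probe sets with a mean of at least log2 5, by gene and probe set (vertical axis), with a circle, triangle and diamond for day 5, 10 and 15 and a bar for their mean. All 9 of the NRP1 and NRP2 probe sets lie right of 0 at every day, all 3 of the SEMA3A and SEMA3C probe sets lie left of it, and the 7 plexin probe sets lie between -0.81 and 0.35. The NRP1 probe set with a mean of 5.09 and the NRP2 probe sets with means of 5.11 and 5.13 had every cystic value below log2 5. They are shown only because of their spiky values, which favours points right of 0.

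Plexins, the signalling receptors, differed less. PLXNA1, a partner of the neuropilins, had 7.61, 7.34 and 7.59 in the spiky clone by day, against 8.25, 8.13 and 7.99 in the cystic clone (log2). The difference of -0.61 (SE 0.14, 1.52-fold lower, limma adjusted p = 0.0270, 3 of 3 days) was larger than the spread between arrays for this probe set, but the other 2 gave 0.06 and -0.41. Leaving out 1 array ended the PLXNA1 call for 4 of the 6 arrays, those of day 5 and day 10, with adjusted p up to 0.190. Leaving out either array of a day takes that day out of the clone comparison and gives the same difference. These 6 fits are therefore not separate checks.

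PLXNB1, the receptor of SEMA4D that also associates with MET, had 6.07, 5.95 and 6.15 in the spiky clone by day, against 5.77, 6.45 and 6.96 in the cystic clone (log2). The ranges overlapped and the difference was -0.34 (95% interval -0.85 to 0.18, limma adjusted p = 0.423). PLXNB2, a second B-type receptor, had 7.12, 6.73 and 7.52 in the spiky clone, against 7.44, 7.18 and 7.30 in the cystic clone. Its difference was -0.18 (95% interval -0.58 to 0.21, limma adjusted p = 0.588). PLXNA2, an A-type receptor, ran from 2.63 to 3.89 over its 3 probe sets and all 6 arrays, all close to background, and was not tested.

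The promoters of 3 genes are shown because their genes differed between the clones or over the culture and their composition differs. RefSeq windows (GRCh38.p14) were found for 8 of the 10 genes, and SEMA3A and NRP1 are not among them. Each run holds the 250 bases before the annotated gene start, 5′ to 3′ on the gene's strand. Capitals mark, on either strand, GGGCGG (the GC box), ACGTG (the core bound by hypoxia-inducible factors) and CAGGTG (an E-box). Among 35116 promoters of the same length these occur in 42.6%, 18.5% and 17.5%.
NRP2, chr2:205682251-205682500 (plus strand): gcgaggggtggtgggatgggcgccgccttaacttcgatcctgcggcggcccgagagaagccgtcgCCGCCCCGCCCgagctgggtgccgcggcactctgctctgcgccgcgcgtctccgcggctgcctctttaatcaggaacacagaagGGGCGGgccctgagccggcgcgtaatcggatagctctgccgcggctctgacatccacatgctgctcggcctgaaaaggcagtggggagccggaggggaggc
SEMA3C, chr7:80922390-80922639 (minus strand): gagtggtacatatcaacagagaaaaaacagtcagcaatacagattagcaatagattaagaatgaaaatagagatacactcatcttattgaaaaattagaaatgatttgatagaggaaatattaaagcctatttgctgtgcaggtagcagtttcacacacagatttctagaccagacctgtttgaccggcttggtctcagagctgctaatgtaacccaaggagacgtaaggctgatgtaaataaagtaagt
SEMA4D, chr9:89495657-89495906 (minus strand): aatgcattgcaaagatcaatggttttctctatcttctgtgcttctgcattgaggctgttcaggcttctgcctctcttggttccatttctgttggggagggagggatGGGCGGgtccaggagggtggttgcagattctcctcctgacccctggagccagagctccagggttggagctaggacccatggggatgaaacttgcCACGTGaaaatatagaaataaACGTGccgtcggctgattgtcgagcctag
NRP2 has 29 CpG dinucleotides and 3 GC boxes in its window. SEMA3C has 2 CpG dinucleotides and none of the 3 motifs. PLXNA1, called lower in the spiky clone like SEMA3C, has 46 CpG dinucleotides and 5 GC boxes. The median over all promoters is 11 CpG dinucleotides. SEMA4D has 1 GC box and 2 separate stretches with ACGTG, of which CACGTG reads the same on both strands. A gene can start elsewhere, and a match is only a run of letters.

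The comparison of day 15 with day 5 asked which of these genes changed over the culture, on average over the spiky and the cystic clone. SEMA4D and SEMA3F rose, each by 1 of its 2 probe sets above log2 5, SEMA3C fell, and the neuropilin and plexin genes did not pass. These were 3 of 9 tested genes, beside 32.3% of all 12317 genes called in this comparison (10.4% higher, 21.9% lower), so the share is near the background and says nothing about the group. The median difference was 0.25 over the 9 genes and -0.11 over all tested genes. SEMA4D was higher at day 15 by 1.38 in the spiky clone and 0.95 in the cystic clone, with the step between day 10 and day 15 in both (1.2 and 0.93). Its fitted rise was 2.24-fold (log2 difference 1.17, SE 0.14, limma adjusted p = 0.000834), while the dimmer probe set gave 0.21 (adjusted p = 0.537 in the fit of every probe set) and the median of the SEMA4D probe sets 0.69 (adjusted p = 0.00940).

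SEMA3F was higher at day 15 by 2.65 in the spiky clone and by 0.53 in the cystic clone. The fitted log2 difference of 1.59 (SE 0.41, limma adjusted p = 0.0171) came to 0.65 without the spiky day 15 array (adjusted p = 0.0706), to 0.93 without the spiky day 5 array (adjusted p = 0.242) and to 2.52 without the cystic day 15 array. For the other SEMA3F probe set it was 0.22. SEMA3C was lower at day 15, at -0.62 in the spiky and -1.22 in the cystic clone relative to day 5, and by its brightest probe set nearly all of this lay between day 5 and day 10 (-0.70 and -1.23). The second SEMA3C probe set was at -0.59 and -1.28 by day 10, and at -1.50 and -0.38 between day 10 and day 15, in the spiky and cystic clones. Its day 15 difference was -1.88 (adjusted p = 0.00152 in the fit of every probe set), and the median of the SEMA3C probe sets gave -1.40 (adjusted p = 0.00161). The brightest probe set's fitted log2 difference was -0.92 (SE 0.23, limma adjusted p = 0.0149). Without the spiky day 5, cystic day 5 or cystic day 15 array it was -1.2, -0.64 and -0.76 (adjusted p = 0.0524, 0.168 and 0.0635).

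Of the genes that did not pass, NRP1 was at 0.37, NRP2 at -0.10, PLXNA1 at -0.14, PLXNB2 at 0.13 and SEMA3A at 0.25, with limma adjusted p from 0.170 to 0.838. For NRP2 that value is the smallest of its 7 probe sets above log2 5, which were all lower at day 15, at -1.18 to -0.10. The one at -1.18 passed in the fit of every probe set (adjusted p = 0.0102), and the median of the NRP2 probe sets gave -0.45 (adjusted p = 0.230). PLXNB1 was at 0.64 (adjusted p = 0.110), with 0.08 in the spiky and 1.2 in the cystic clone, and its second probe set at 0.67. With 1 array left out PLXNB1 ran from 0.16 to 1.12, and it passed only without the spiky day 15 array, at 1.0. Of 7 fibroblast markers COL1A1 rose at day 15 by 1.38 (limma adjusted p = 0.00203), FBLN1 was at 0.21, and 5 had means below log2 5. The epithelial keratin genes KRT8 and KRT18 were lower at day 15 (-0.48 and -0.66, limma adjusted p = 0.0412 and 0.00106). The other tested epithelial markers did not pass, with EPCAM at -0.17, KRT19 at -0.04, VIL1 at -0.24 and CDH1 at 0.32 (limma adjusted p from 0.104 to 0.825). The ACTB 3' over 5' difference was 3.10 at day 15 and 2.73 at day 5 in the spiky clone, and 3.28 and 2.83 in the cystic clone. For GAPDH it was 0.49 at day 15 and 0.60 at day 5 in the spiky clone, and 0.63 and 0.65 in the cystic clone. The part of these in the day 15 values was not tested.

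**Figure D3:**
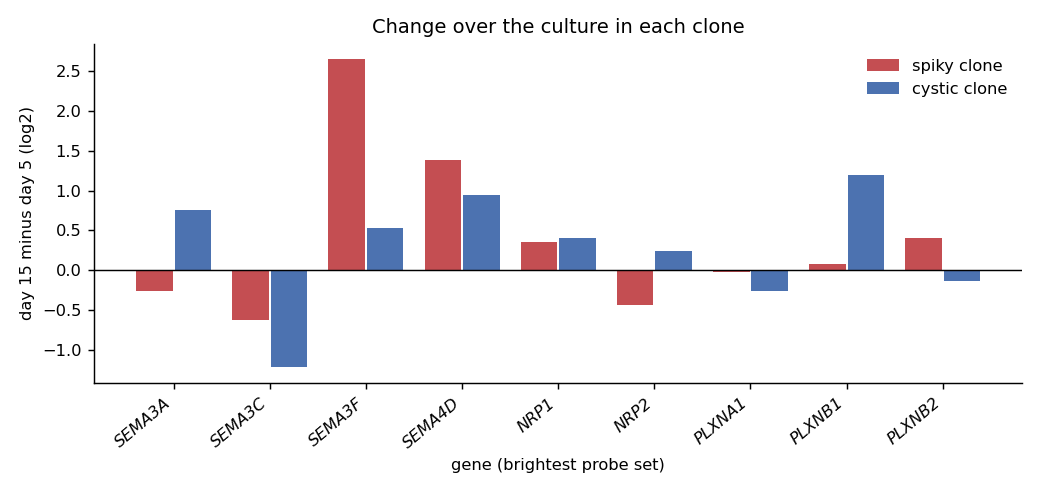
Day 15 minus day 5 (log2, vertical axis) of the brightest probe set of the 9 tested genes (horizontal axis), 1 difference of 2 arrays per bar, red for the spiky and blue for the cystic clone. SEMA4D is above 0 in both clones (1.38 and 0.95) and SEMA3C below 0 in both (-0.62 and -1.22), while SEMA3F stands at 2.65 in the spiky and 0.53 in the cystic clone.

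Whether the clones changed at different rates was asked with the difference in slope per 10 days. Limma called 0 of 12317 genes, with 309 at an unadjusted p below 0.05, and all 9 tested genes here had adjusted p = 0.999. This fit took day as a straight line and left out the day factor that pairs the arrays. Day changes shared by the clones that do not follow a line therefore add to its spread. The absence of calls does not show that the clones changed alike. SEMA3F had the largest difference of the 9, at 2.12 (95% interval 0.60 to 3.65), followed by PLXNB1 at -1.11 (-2.20 to -0.02) and SEMA3A at -1.03 (-2.23 to 0.18). These intervals are not adjusted for the number of genes.

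The rest of the pathway was described with 5 lists of related genes. Of 16 other semaphorins 9 were tested, and in the clone comparison SEMA4B, a membrane-bound class 4 semaphorin, was lower in the spiky clone (log2 difference -1.07, limma adjusted p = 0.00247). It was the single call among the 9, beside 11.4% called in either direction over all tested genes, and their median was -0.16, against -0.03 over all tested genes. At day 15, 4 of the 9 rose and 0 fell, beside 10.4% higher and 21.9% lower over all tested genes: SEMA4B by 1.0, the secreted SEMA3G by 1.0, SEMA4G by 0.97 and SEMA4C by 0.55 on the log2 scale, with limma adjusted p of 0.00381, 0.0292, 0.00879 and 0.0184. SEMA3G came to 0.42 without the spiky day 15 array (adjusted p = 0.241). The day calls of SEMA3G and SEMA4G were also lost without either day 5 array, and that of SEMA4B (0.81) without the cystic day 5 array, with adjusted p of 0.0544 to 0.225. Of 5 other plexins 4 were tested and 0 passed in either comparison. By the rule for lists without a call, PLXNC1 was at 0.37 and PLXNA3 at -0.20 for the clones, and PLXNC1 at -0.58 and PLXND1 at 0.48 for day 15. With 1 array left out PLXNC1 ran from -1.42 to 0.27 for day 15, so its sign changed. The -1.42 came without the spiky day 15 array, the only such fit that passed. It rested on the cystic day 15 value of 4.52, below log2 5. PLXND1 ran from 0.33 to 0.64 with 1 array left out and passed in none of these fits. It was at 1.03 with the median of its probe sets (adjusted p = 0.00319) and 0.55 with cyclic loess (adjusted p = 0.0460).

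Among 26 tested intracellular effectors 2 fell and 0 rose in the spiky clone, a share near the 7.74% of all tested genes called lower: FARP1, an exchange factor that acts with A-type plexins, at -1.35 (limma adjusted p = 0.00111), and DPYSL2, the collapsin response mediator that carries SEMA3A signals to microtubules, at -0.80 (adjusted p = 0.0382). DPYSL2 was at -0.70 without either day 5 array and at -0.65 without either day 15 array, with adjusted p of 0.0804 to 0.230, and it was at -0.75 under both other array scalings (adjusted p = 0.0594 and 0.0564). The GTPases RHOA and RAC1, both bright, were at -0.02 and -0.06. At day 15 RND2 rose by 1.40, and DPYSL3, RND3, the actin-oxidising enzyme MICAL2 and the actin-severing protein gene CFL1 were at -0.94, -0.86, -0.78 and -0.40 (1 higher and 4 lower of 26, beside 10.4% and 21.9% of all tested genes). Without the spiky day 5 array RND2, DPYSL3, RND3 and MICAL2 were at 1.21, -0.97, -1.06 and -0.53 (adjusted p = 0.0539, 0.0613, 0.0997 and 0.224). RND3 was also lost without the cystic day 5 array (-0.66, adjusted p = 0.211) or day 15 array (-0.34, adjusted p = 0.0953), and MICAL2 without the spiky day 15 array (-0.63, adjusted p = 0.0563).

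Of 11 tested coreceptors and other neuropilin ligands L1CAM, an adhesion molecule that joins neuropilin-1 in SEMA3A reception, was lower in the spiky clone (-1.10, limma adjusted p = 0.00729) and 0 were higher, beside 7.74% lower and 3.65% higher over all tested genes. L1CAM was at -0.90 without the spiky or the cystic day 5 array (adjusted p = 0.0696 and 0.0735). MET and ERBB2, receptor kinases that associate with PLXNB1, were at 0.14 and -0.20 and did not pass. At day 15 the neuropilin ligands VEGFA and PGF rose by 1.52 and 0.90, while L1CAM fell by 0.86 on the log2 scale. Without the spiky day 5 array PGF was at 0.93 (adjusted p = 0.0526), and L1CAM lost its call without the spiky day 5, cystic day 5 or cystic day 15 array (-1.16, -0.56 and -0.70, with adjusted p of 0.0571, 0.225 and 0.0929). With the median of their probe sets PGF was at 0.30 and L1CAM at -0.46 for day 15, and L1CAM at -0.57 for the clones, with adjusted p of 0.242, 0.148 and 0.0853. Of 7 tested proteases that cleave or shed semaphorins, FURIN, which processes class 3 semaphorins, was lower in the spiky clone (-0.74, limma adjusted p = 0.0163) and 0 were higher, beside the same shares of all tested genes. At day 15, 4 of the 7 rose and 0 fell, beside 10.4% higher and 21.9% lower over all tested genes, with FURIN at 0.93, PCSK7 at 0.91, the sheddase ADAM17 at 0.56 and ADAM10 at 0.51. The FURIN clone call was lost at -0.66 without either day 10 array (adjusted p = 0.0812 and 0.0846). Without the cystic day 5 array FURIN, PCSK7 and ADAM17 were at 0.65, 0.80 and 0.54 for day 15 (adjusted p = 0.0909, 0.0532 and 0.124), and ADAM17 was also lost without the spiky day 5 array (adjusted p = 0.137) or the spiky day 15 array (0.39, adjusted p = 0.0749). PCSK7 was at 0.30 with the median of its probe sets (adjusted p = 0.187).

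**Figure D4:**
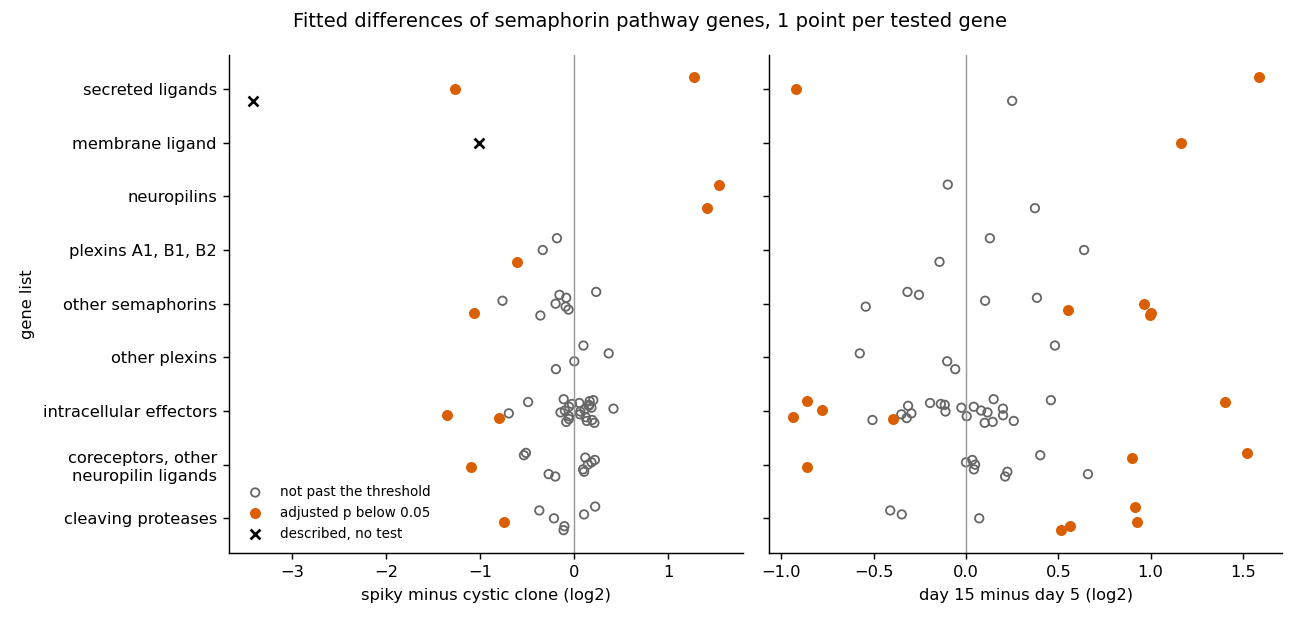
Fitted difference (log2, horizontal axes) of each tested gene of the semaphorin pathway by list (vertical axis), spiky minus cystic on the left and day 15 minus day 5 on the right, with filled points for limma adjusted p below 0.05 and crosses for SEMA3A and SEMA4D, which were described without a test. The neuropilins lie at 1.41 and 1.54 on the left, with SEMA3F at 1.27, and the filled points of the other lists lie left of 0.

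The position of the genes on their chromosomes was set beside the clone difference, using the 20 tested genes nearest to each in RefSeq order. SEMA3A and SEMA3C are next to each other among the tested genes of chromosome 7, yet the median of the 20 genes around SEMA3A was 0.00, as was that of the chromosome. Around NRP1 on chromosome 10 and NRP2 on chromosome 2 the medians were 0.10 and 0.02. The genes around SEMA4D on chromosome 9 were lower too, with a median of -0.30 and 18 of 20 below 0, beside -0.16 over the 519 tested genes of that chromosome. In that stretch 4 of 20 were called lower, DAPK1 at -1.83 among them, and SEMA4D at -1.01 lay below all but 1 of its neighbours.

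Of the other pathway genes lower in the spiky clone, SEMA4B and FURIN lie close together on chromosome 15. There the medians of the surrounding genes were -0.45 and -0.53, and 19 and 20 of 20 were below 0. These stretches share most of their genes and each holds the other gene, so they are not separate observations. The median over the 389 tested genes of that chromosome was -0.18. FARP1 lies on chromosome 13, with a median of -0.67 around it and -0.69 over the 201 tested genes of the chromosome. Around DPYSL2 on chromosome 8 the median was -0.11. L1CAM on chromosome X had a median of -0.04 around it. These other genes were looked up after their values were seen. The part of the surrounding stretch in the SEMA4D, SEMA4B, FURIN and FARP1 values was not tested.

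**Figure D5:**
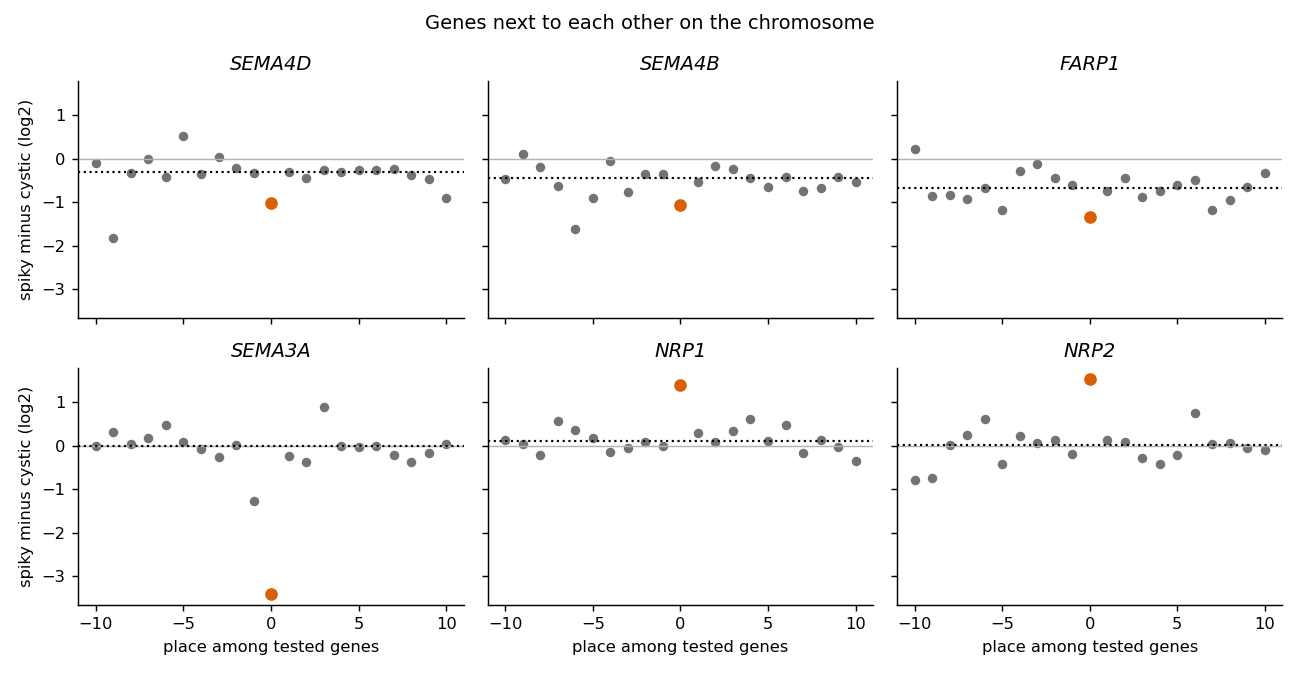
Spiky minus cystic difference (log2, vertical axis) of the 20 tested genes around each named gene, by place in chromosome order (horizontal axis, the named gene at 0 in orange), with a dotted line at the median of the 20. The dotted line lies at -0.30 around SEMA4D, -0.45 around SEMA4B and -0.67 around FARP1, and at 0.00 to 0.10 around SEMA3A, NRP1 and NRP2.

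Among 3668 other tested genes whose values ranged over at least log2 1, the 5 most like SEMA3A by Pearson's r over the 6 arrays were PHF21B (0.997), TUBBP5 (0.994), ZDHHC20 (0.991), ZNF460 (0.990) and PML (0.989). Over 6 arrays in 2 separate groups such values mainly follow the gap between the clones. PML, which encodes the scaffold of nuclear bodies, had 7.68, 7.17 and 7.69 in the spiky clone by day, against 8.99, 9.04 and 9.15 in the cystic clone.

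Markers of other cell types that HCA-7 should lack were set beside the clone comparison. Of 7 leukocyte markers 3 had means above log2 5 and 0 were called, with CSF1R at -0.93 (limma adjusted p = 0.0652), CORO1A at -0.58 and CD3D at -0.10. The leukocyte list means were 4.03 to 4.42 on the spiky and 4.36 to 4.67 on the cystic arrays, with PTPRC, CD3E, CD14 and ITGAM below log2 5. Of 5 neuronal markers 3 had means above log2 5, and the synaptic gene SYT1 was lower in the spiky clone (-0.96, limma adjusted p = 0.00346). The neuronal list means were 6.53 to 6.65 on the spiky and 6.79 to 7.02 on the cystic arrays. Only TUBB3 and SYT1, the latter with a mean of 8.69, lay above these list means. RBFOX3 and TUBB3 had means of 5.49 and 12.11, with clone differences of -0.05 and -0.12, and SNAP25 and STMN2 had means below log2 5. The epithelial gene VIL1 was also lower in the spiky clone (-0.68, limma adjusted p = 0.0411). The part of these in the semaphorin values was not tested.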

How the data were processed

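Total RNA of 2 HCA-7 clones was hybridised to 6 arrays. Per the submitters' processing notes RMA was used, and the deposited values are log2 intensities, with version and settings not given in the sources used here. RMA evens out the distributions of the arrays, so differences are relative to the bulk of genes. Precision is limited by the small number of arrays.

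Of 54675 probe sets 41097 had 1 gene symbol in the platform's gene table, 1801 several and 11777 none. Symbols were updated by gene ID to RefSeq (GRCh38.p14), and 41043 matched. Each gene was represented by its brightest single-symbol probe set, and 12317 genes with a mean of at least log2 5 were tested. Of the effectors, RHOD, RASA1, PAK1, FLNA and GIPC1 are not analysed here.

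Each gene was fitted by limma 3.58.1 under R 4.3.3, with terms for clone and for day (3 levels) over the 6 arrays, and 2 residual degrees of freedom. Variances were moderated along a trend on mean level. A model with day as a number, in place of the day factor, gave the slope difference. P-values are two-sided and were adjusted by the Benjamini-Hochberg method over all tested genes and a threshold of 0.05. The fits were tested on simulated data. Day pairs the arrays as a factor of the design, and deviations from the clone means correlated at 0.608, 0.496 and 0.719 over genes for the day 5, day 10 and day 15 pairs. Alternatives covered the filter, the probe set per gene, the unit tested, scaling of arrays, prior variance, the day term and leaving out each array. For the clone difference of a gene, leaving out the spiky or the cystic array of a day gives the same value, since the day term pairs them.

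The 10 genes and the lists were chosen with earlier results of these data known. From each list up to 3 called genes per direction with the largest difference were named, or the 2 largest where none passed. CFL1, SEMA4C, ADAM10, RHOA, RAC1, MET and ERBB2 were named later, with their values known, as were DAPK1, the marker genes named and the promoters shown. Figures were drawn with matplotlib 3.10.9.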

Additional observations from a re-analysis of the deposited data

Results flagged for a closer look

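The brightest probe sets of SEMA3A and NRP2 moved in opposite directions in the clones after day 5, at both later days. SEMA3A was at -0.62 and -0.26 at day 10 and 15 relative to day 5 in the spiky clone, and at 0.23 and 0.76 in the cystic clone (log2). NRP2 was at -0.77 and -0.44 in the spiky clone, and at 0.59 and 0.24 in the cystic clone. Of the 7 NRP2 probe sets above log2 5, 2 showed opposite signs at both days and the other 5 did not. Each value rests on 2 arrays, and this pattern of signs was not tested. The test of the slope gave differences per 10 days of -1.03 for SEMA3A and -0.68 for NRP2, both with limma adjusted p = 0.999.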

How the results depend on the processing

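The number of genes called between the clones was 1403 (67.9% lower in the spiky clone). It was 2698 with every probe set above log2 5 tested, 691 without an intensity trend in the variance prior, 72 with no replicate block (culture day left out of the model) and 507 to 2157 with 1 array left out. Testing every probe set means 29468 probe sets in place of 12317 genes, here and for day 15 below, so those counts differ in unit. With each array centred on its median 55.5% of the calls were lower. For day 15 against day 5 it was 3982 (67.7% lower), against 8708 with every probe set tested and 761 to 4318 with 1 array left out. Cyclic loess between arrays gave 55.1% lower. The slope difference gave 0 calls under each of 8 alternatives.

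No direction among the named genes was reversed in a call. With no replicate block the clone calls of SEMA3C, SEMA3F, NRP1, NRP2 and PLXNA1 were lost (adjusted p = 0.237, 0.561, 0.0647, 0.0596 and 0.250), as were those of SEMA4B, DPYSL2, L1CAM and FURIN (0.380, 0.212, 0.234 and 0.695). NRP1, NRP2 and SEMA3C kept their clone calls under all other alternatives that gave a value. SEMA3F lost its clone call with no filter on level (adjusted p = 0.0811), without the trend (0.136), with a robust prior (0.105) and with the median of its probe sets (difference 0.03). It lost its day call without the trend (0.0644), with a robust prior (0.0518) and with the median of its probe sets (0.22). PLXNA1 lost its call without the trend (0.0547) and at -0.11 with the median of its probe sets. FURIN and DPYSL2 lost their clone calls without the trend (0.0544 and 0.0683), as did SEMA3G, RND3 and ADAM17 their day calls (0.0753, 0.0795 and 0.0606). With no filter DPYSL2 (0.0715) and the SEMA3G day call (0.0573) were lost. SEMA4D was at -0.59 with the median of its probe sets. SEMA3A and NRP1 had no value with the median of their probe sets, which lay under log2 5. The cause of these changes was not tested. Signal near background limits PLXNA2 and the dimmer probe sets.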
